A study of Mus musculus with 24 samples.

Results

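The cytosolic and mitochondrial heat shock chaperones were followed in mouse embryonic fibroblasts (MEFs) through 10 genes chosen by name: Hspa1a, Hspa1b, Hspa8, Hsp90aa1, Hsp90ab1, Hspb1, Dnajb1, Hsph1, Hspd1 and Hspe1. All 10 were among the 55487 genes of the count table, and all 10 passed the filter on low counts that left 15828 genes for testing. Poly(A) RNA was sequenced from wild-type (WT) MEFs and from prkaa1 prkaa2 double-knockout MEFs (AMPK KO), which lack both genes for the catalytic subunit of the AMP-activated protein kinase. Each line received DMSO as the vehicle, MK-8722, a direct activator of AMPK, or torin1, a kinase inhibitor of MTOR, with 4 libraries in each of the 6 groups and 24 in all. The comparison asks how far the response to each drug depends on AMPK. The length and dose of treatment for these libraries were not given in the sources used here. The 4 libraries of a group came from passages 12, 13, 14 and 15 in WT and from passages 16, 17, 18 and 19 in AMPK KO. Each genotype is 1 line and the passages do not meet, so that genotype, line and passage cannot be told apart. The libraries of a group differ in passage, but nothing in the labels says that their cells were derived separately. The p-values measure the spread between these libraries.

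Heat shock proteins are chaperones that bind unfolded protein and help it to fold. HSP70 proteins (Hspa1a, Hspa1b, Hspa8) take hold of short exposed stretches in a cycle of ATP hydrolysis, J proteins such as the product of Dnajb1 bring the client and start hydrolysis, and exchange factors such as the product of Hsph1 release the nucleotide. HSP90 proteins (Hsp90aa1, Hsp90ab1) act late in the folding of kinases and receptors, the small heat shock protein of Hspb1 holds unfolded protein without ATP, and the chaperonin of Hspd1 with its lid Hspe1 folds proteins inside mitochondria. In each cytosolic pair 1 form is made at all times (Hspa8, Hsp90ab1) and another is raised by stress (Hspa1a and Hspa1b, Hsp90aa1). The stress-raised genes are known targets of heat shock factor 1 (HSF1), which binds heat shock elements, runs of the unit GAA and its inverse TTC set 2 bases apart.

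Promoters are shown here for a near-identical gene pair that moved together under torin1 (Hspa1a, Hspa1b), for a stretch shared by the promoter windows of the divergent genes Hspd1 and Hspe1, which were also both lower, and for Hspb1, which was called between the genotypes and not under torin1. RefSeq promoter windows on GRCm38.p6 matched 7 of the 10 genes; Hspa8, Hsp90aa1 and Hsp90ab1 were not matched. The Hspa1a stretch is chr17:34972157-34972406 on the minus strand, the 250 bases before its start. The Hspa1b stretch is chr17:34959239-34959488 on the minus strand. The Hspb1 stretch is chr5:135887669-135887918 on the plus strand. The Hspd1-Hspe1 stretch is chr1:55087933-55088131 (199 bases), read on the plus strand. It runs from an inner RefSeq start of Hspd1 up to the annotated gene start of Hspe1, and lies inside the longest annotated gene model of Hspd1. Capitals mark each match to GAANNTTC or TTCNNGAA, where N is any base and both motifs read the same on both strands.
Hspa1a: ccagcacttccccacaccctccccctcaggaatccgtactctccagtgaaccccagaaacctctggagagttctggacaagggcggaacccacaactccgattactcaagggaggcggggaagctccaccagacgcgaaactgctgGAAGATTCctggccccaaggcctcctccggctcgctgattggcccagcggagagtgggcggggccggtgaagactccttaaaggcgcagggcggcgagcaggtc
Hspa1b: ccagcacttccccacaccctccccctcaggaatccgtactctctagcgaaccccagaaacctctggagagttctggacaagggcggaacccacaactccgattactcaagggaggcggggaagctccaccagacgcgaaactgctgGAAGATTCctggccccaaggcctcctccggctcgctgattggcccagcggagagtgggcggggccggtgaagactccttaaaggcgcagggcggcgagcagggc
Hspb1: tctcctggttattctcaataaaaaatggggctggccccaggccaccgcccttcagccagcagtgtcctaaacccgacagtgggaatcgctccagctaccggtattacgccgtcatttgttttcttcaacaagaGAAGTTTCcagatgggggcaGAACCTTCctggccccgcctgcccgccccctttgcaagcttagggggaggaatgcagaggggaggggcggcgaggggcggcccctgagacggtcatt
Hspd1-Hspe1: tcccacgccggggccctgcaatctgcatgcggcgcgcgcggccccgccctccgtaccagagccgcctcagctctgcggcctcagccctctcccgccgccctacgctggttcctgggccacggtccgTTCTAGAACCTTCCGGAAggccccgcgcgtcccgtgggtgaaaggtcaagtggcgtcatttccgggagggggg

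The Hspa1a and Hspa1b stretches are identical at 247 of 250 bases, and both hold GAANNTTC from 104 to 97 bases before the start. The Hspd1-Hspe1 stretch holds both motifs in an overlapping run, so that the longer forms of 3 alternating units, which begin with GAA or with TTC, also match in it on both strands. That run lies from 89 to 72 bases before the RefSeq start of Hspe1, which is a little inside the annotated gene. Hspb1 holds GAANNTTC from 117 to 110 and again from 97 to 90 bases before its start. A TTCNNGAA was found in the windows of Hsph1, from 33 to 26 bases before 1 of its RefSeq starts, and no match lay in the windows of Dnajb1, which says only that these letters are absent there. GAANNTTC was present in the windows of 5 of the 7 matched genes (Hspa1a, Hspa1b, Hspd1, Hspe1 and Hspb1) and in 6.69% of the 32851 promoter windows of the same length. Hspa1a and Hspa1b are near-identical there and Hspd1 and Hspe1 share 1 run, so these genes are not separate cases. A gene was counted if any of its windows matched, with 10 windows for the 7 genes, whereas the percentages are per window. TTCNNGAA was present in 3 of the 7 (Hsph1, and Hspd1 and Hspe1 in their shared run) and in 7.17% of windows. Each of the longer forms was present in 2 of the 7 (Hspd1 and Hspe1, which share 1 run) and in 0.466% of windows. A match is a description of the letters and not a measured binding site.

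Estimated counts in the libraries summed to between 26900240 and 34192685. All 10 fibroblast markers were counted, and their summed level in CPM (counts scaled to a fixed total per library) lay between 10600 and 17200 in WT libraries and between 5090 and 7430 in AMPK KO libraries. Col1a1, Vim and Fn1 were abundant in both lines, and Col1a2 was at 2340 CPM in WT DMSO and 29.5 CPM in AMPK KO DMSO. Other fibroblast markers were low in both lines. Pdgfra, Thy1 and Postn were at 0.587, 1.22 and 3.45 CPM in WT DMSO and at 1.2, 0.203 and 0.329 CPM in AMPK KO DMSO. Col3a1, Pdgfrb and S100a4 were at 107, 66.2 and 183 CPM in WT DMSO and at 13.7, 45 and 167 CPM in AMPK KO DMSO. The lists of epithelial, endothelial, immune, pluripotent and muscle markers summed to 7.86 CPM or less in every library, with Ptprc, Pou5f1, Lin28a, Myod1 and Myog at 2 counts or fewer. The neural list summed to between 40.4 and 114 CPM, most of it Tubb3, and Sox2 was at 15 CPM in AMPK KO DMSO and 0.00856 CPM in WT DMSO. The part of the difference in these markers in the genotype comparison of the chaperones was not tested. The targeted genes were still counted in AMPK KO: Prkaa1 ranged from 78.0 to 82.6 CPM in WT DMSO and from 66.9 to 73.3 CPM in AMPK KO DMSO, and Prkaa2 from 3.22 to 5.71 and from 2.34 to 4.48 CPM. Counts summed over all exons include those outside a deletion and do not check the knockout, so the genotypes are those of the labels.

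Per length of transcript, in TPM (transcript copies as a share of all copies, scaled to a fixed total), the constitutive forms stood at the top. Hsp90ab1 averaged 4473 TPM over the 24 libraries, with a range of 3909.9 to 5302, and Hspa8 averaged 4199 TPM, with a range of 3216 to 5163, so that their ranges overlapped. Hsp90aa1 followed at 1167 TPM, Hspd1 at 762, Hspe1 at 453, Hspb1 at 304 and Hsph1 at 145. The stress-raised Hspa1b, at 48.9 TPM, and the J protein gene Dnajb1, at 42.2 TPM, were close to each other, with overlapping ranges. Hspa1a was the lowest, at 16.7 TPM. The 10 genes together took 1.11% ± 0.0357 (SD, n = 4) of all counts in WT DMSO and 1.27% ± 0.0371 in WT torin1, with ranges apart. They took 1.28% ± 0.0435 in AMPK KO DMSO and 1.35% ± 0.0464 (SD, n = 4) in AMPK KO torin1, with overlapping ranges. The mean summed share was thus higher under torin1 in both genotypes, a sum led by the abundant Hsp90ab1 and Hspa8. Some of these genes cannot be separated cleanly from copies of themselves: 58.3% of the 52-base windows, the length of 1 read, of the leading Hspa1a transcript also occur in Hspa1b, and 61.8% of those of Hspa1b occur in Hspa1a. The same share was 69.6% for Hspa8 with the copy Gm15459, 58.8% for Hspb1 with Hsp25-ps1, 56.9% for Hsp90aa1 with Gm12346, 41.9% for Hspd1 with Hspd1-ps3, and 0 for Hsph1. Reads were shared out by the quantifier, so the split within Hspa1a and Hspa1b is uncertain.

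**Figure D1:**
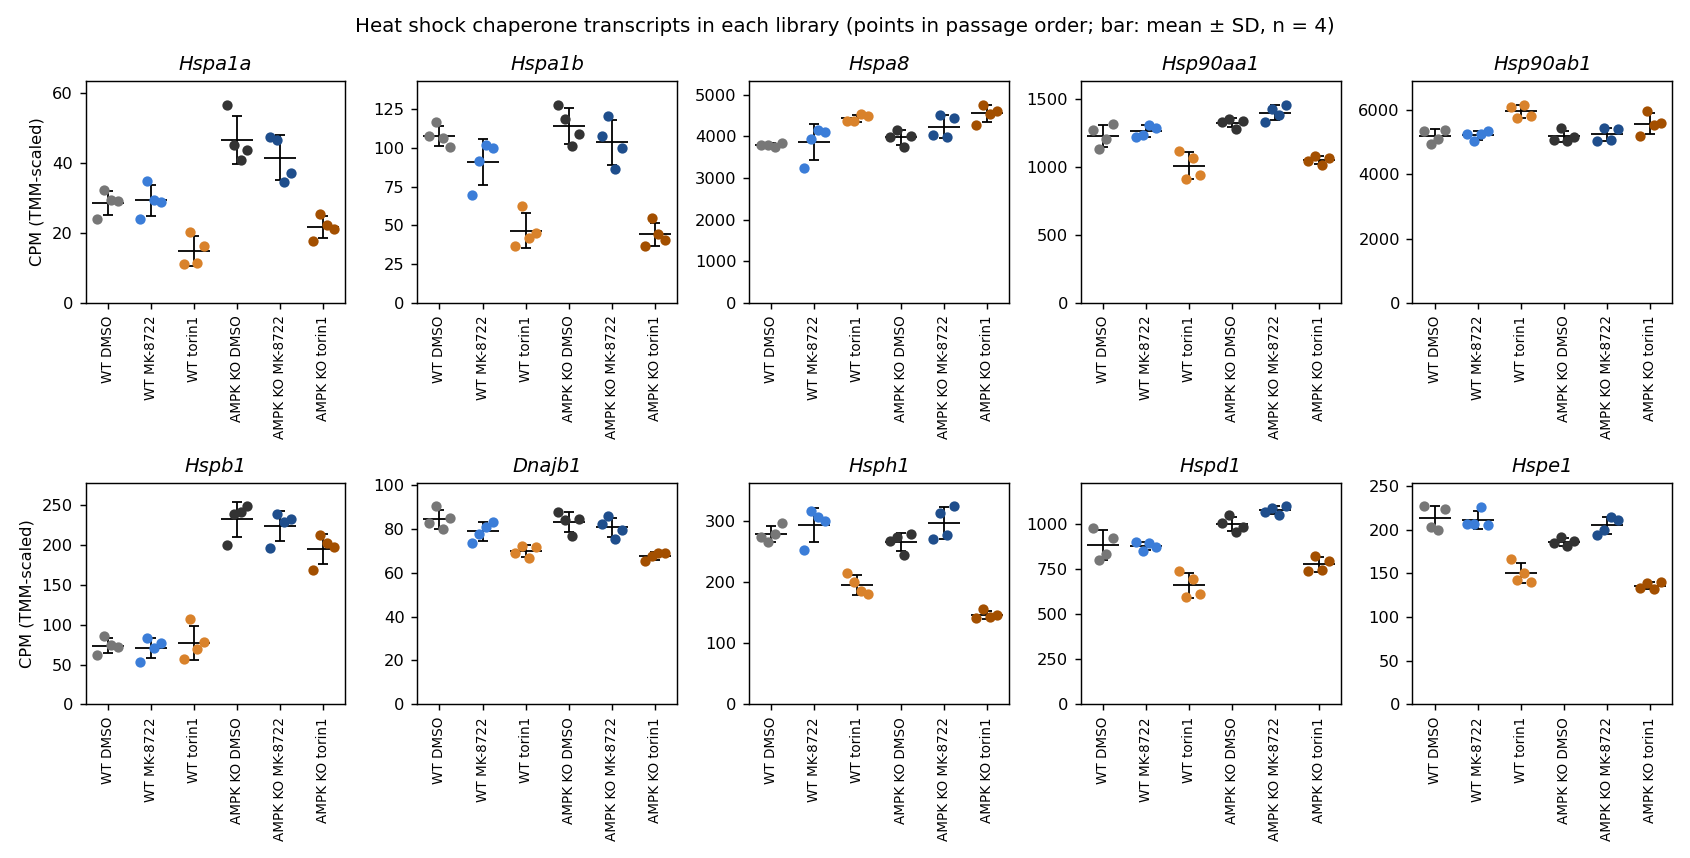
CPM (TMM-scaled, linear axis from 0) of the 10 chaperones in every library of the 6 groups. Points stand in the order of passage within a group and bars give the mean ± SD (n = 4). Torin1 libraries lie below their DMSO libraries for Hspa1a, Hspa1b, Hsp90aa1, Dnajb1, Hsph1, Hspd1 and Hspe1 in both genotypes, and Hspb1 stands apart by genotype.

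Under torin1 7 of the 10 chaperones fell in WT MEFs and the same 7 fell in AMPK KO MEFs, while the constitutive Hspa8 and Hsp90ab1 and the small heat shock protein gene Hspb1 were not called. Called means an adjusted p under 0.05 in edgeR's quasi-likelihood test with Benjamini-Hochberg adjustment over all genes, with a fold change of at least 1.2. Of all genes tested, 21.1% were called lower and 26.5% higher under torin1 in WT, and 17.5% lower and 25.8% higher in AMPK KO. The median log2 fold change of the 10 genes was -0.35 in WT, where that of all genes tested was 0.04, and -0.35 in AMPK KO, where that of all genes was 0.06. For each of the 7 genes the 4 torin1 libraries lay below all 4 DMSO libraries in both genotypes; 24.7% of all genes did so in WT and 23.7% in AMPK KO. By that separation the torin1 library of each of the 7 was also the lower one at 4 of 4 passages, which is not a further result. In bulk RNA a smaller share of cells with a transcript and less of it per cell cannot be told apart.

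The inducible HSP70 pair, Hspa1a (chr17:34969190-34972156) and Hspa1b (chr17:34956436-34959238, both on the minus strand, GRCm38), had the largest fall of the 10. Values are in CPM on the TMM scale, in the order of passages 12, 13, 14 and 15 for WT and 16, 17, 18 and 19 for AMPK KO. Hspa1b was at 107, 116, 106 and 101 CPM in WT DMSO and at 36.6, 62.6, 42.1 and 44.8 CPM in WT torin1. It was at 128, 119, 101 and 109 CPM in AMPK KO DMSO and at 36.8, 54.5, 44.5 and 40.7 CPM in AMPK KO torin1. The groups did not overlap in either genotype, and the highest torin1 library of WT was that of passage 13, as it was the highest of the DMSO libraries. The fitted log2 fold change of Hspa1b was -1.21 (SE 0.15, adjusted p = 9e-07 in edgeR) in WT and -1.37 (SE 0.15, adjusted p = 2.2e-07 in edgeR) in AMPK KO.

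Hspa1a, the neighbouring twin of Hspa1b, was at 24, 32.2, 29.3 and 29.1 CPM in WT DMSO and at 11.3, 20.2, 11.4 and 16.2 CPM in WT torin1. In AMPK KO it was at 56.7, 45.3, 40.9 and 43.9 CPM in DMSO and at 17.7, 25.3, 22.3 and 21.2 CPM in torin1. It fell by 0.96 on the log2 scale in WT (SE 0.18, adjusted p = 8.1e-05 in edgeR) and by 1.11 in AMPK KO (SE 0.17, adjusted p = 9.6e-06 in edgeR). Within a library, where no scaling enters, the summed Hspa1a and Hspa1b counts were 3.60% ± 0.234 (SD, n = 4) of those of Hspa8 in WT DMSO and 1.38% ± 0.359 in WT torin1. The same ratio was 4.05% ± 0.386 in AMPK KO DMSO and 1.44% ± 0.178 in AMPK KO torin1, so that the ranges of DMSO (3.38% to 4.62% over both genotypes) and torin1 (1.10% to 1.90%) were apart.

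Hsph1, the HSP110 exchange factor that releases ADP from HSP70 (chr5:149614287-149636376, minus strand), was the 1 chaperone whose response to torin1 was called different between the genotypes. It was at 274, 267, 279.8 and 298 CPM in WT DMSO and at 216, 201, 185 and 181 CPM in WT torin1. In AMPK KO it was at 267, 274, 245 and 279 CPM in DMSO and at 142, 156, 143 and 146 CPM in torin1. The DMSO libraries of the genotypes overlapped, whereas every AMPK KO torin1 library was below every WT torin1 library. Hsph1 fell by 0.51 on the log2 scale in WT (SE 0.068, adjusted p = 5.1e-07 in edgeR) and by 0.86 in AMPK KO (SE 0.069, adjusted p = 1.8e-10 in edgeR). The difference between the genotypes was -0.35 (SE 0.096, 95% interval -0.54 to -0.15, adjusted p = 0.023 for the interaction in edgeR). Of all genes, 2.93% were called lower and 4.19% higher in that interaction, and Hsph1 was 1 of 10 chaperones. The call was lost when the AMPK KO DMSO library of passage 19 was left out (-0.32, adjusted p = 0.054) and with an offset for transcript length (-0.32, adjusted p = 0.087).

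The other 9 chaperones had interaction values between -0.32 (Hspb1, 95% interval -0.78 to 0.13) and 0.05 (Hspd1 and Hspe1), with adjusted p from 0.38 to 0.87 in edgeR. For Hspa1b the 95% interval ran from -0.61 to 0.29 and for Hspe1 from -0.10 to 0.20, so that a difference of the size of Hsph1's lies inside the first interval and outside the second. With the passage as a block Hspb1 was also called (-0.30, adjusted p = 0.013 in edgeR).

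Dnajb1, the J protein that works with HSP70 in the cytosol (chr8:83608193-83612653, plus strand), had a smaller change with a narrow spread. It was at 82.5, 90, 79.8 and 84.7 CPM in WT DMSO and at 69.0, 72.1, 66.4 and 71.6 CPM in WT torin1. In AMPK KO it was at 87.3, 84.1, 76.7 and 84.4 CPM in DMSO and at 65.1, 67.4, 69.0 and 68.7 CPM in torin1. It fell by 0.27 on the log2 scale in WT (SE 0.049, adjusted p = 3.6e-05 in edgeR) and by 0.30 in AMPK KO (SE 0.049, adjusted p = 1.2e-05 in edgeR). These changes are close to the 1.2-fold limit: with library size alone as the scaling they were -0.17 and -0.24, under the limit in both genotypes. The WT value was also under it without the torin1 library of passage 15 (-0.26) or 14 (-0.22), without the DMSO library of passage 13 (-0.25) and with a filter of 10 counts in every library (-0.24).

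Of the HSP90 pair, the stress-raised Hsp90aa1 (chr12:110690605-110702728, minus strand) fell and the constitutive Hsp90ab1 (chr17:45567775-45573271, minus strand) did not. Hsp90aa1 was at 1268, 1129, 1201 and 1316 CPM in WT DMSO and at 1119, 908, 1062 and 940.2 CPM in WT torin1. In AMPK KO it was at 1326, 1353, 1276 and 1339 CPM in DMSO and at 1039, 1082, 1011 and 1068 CPM in torin1. The WT groups were next to each other (lowest DMSO library 1129, highest torin1 library 1119), and those of AMPK KO were apart. Hsp90aa1 fell by 0.29 on the log2 scale in WT (SE 0.055, adjusted p = 6.8e-05 in edgeR) and by 0.33 in AMPK KO (SE 0.055, adjusted p = 1.2e-05 in edgeR). In WT the value was -0.23 without the torin1 library of passage 15, -0.25 without that of passage 13, -0.25 with the filter of 10 counts in every library and -0.19 with library size alone, each under the 1.2-fold limit.

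Hsp90ab1 was at 5356, 4931, 5091 and 5386 CPM in WT DMSO and at 6108, 5753, 6167 and 5815 CPM in WT torin1, with no overlap and in the opposite direction to Hsp90aa1. The AMPK KO libraries were at 5074, 5443, 5035 and 5168 CPM in DMSO and at 5181, 5979, 5525 and 5593 CPM in torin1, which overlapped. Its log2 fold change was 0.20 in WT (SE 0.044, adjusted p = 0.00034 in edgeR) and 0.10 in AMPK KO (SE 0.044, adjusted p = 0.044 in edgeR), both under the 1.2-fold limit. Within a library the Hsp90aa1 count was 23.7% ± 0.626 (SD, n = 4) of that of Hsp90ab1 in WT DMSO and 16.9% ± 1.14 in WT torin1. In AMPK KO the ratio was 25.6% ± 0.571 in DMSO and 18.9% ± 0.893 in torin1. The lowest DMSO ratio over both genotypes was 22.9% and the highest torin1 ratio was 20.1%.

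Hspa8, the constitutive HSP70 (chr9:40800984-40810087, plus strand), also lay higher under torin1 by less than the fold limit. It was at 3791, 3793, 3734 and 3836 CPM in WT DMSO and at 4361, 4368, 4535 and 4482 CPM in WT torin1, and at 3995, 4158, 3733 and 4009 CPM in AMPK KO DMSO and 4283, 4758, 4548 and 4607 CPM in AMPK KO torin1. All torin1 libraries lay above the DMSO libraries of their genotype. The log2 fold change was 0.23 in WT (SE 0.059, adjusted p = 0.0017 in edgeR) and 0.20 in AMPK KO (SE 0.059, adjusted p = 0.0064 in edgeR), short of 1.2-fold. With library size alone, which put the median of all genes under torin1 in WT at 0.14 in place of 0.04, Hspa8 (0.33) and Hsp90ab1 (0.30) were past the limit there. The Hsph1 count was 7.37% ± 0.320 (SD, n = 4) of that of Hspa8 in WT DMSO and 4.42% ± 0.436 in WT torin1, and 6.70% ± 0.178 and 3.23% ± 0.0837 in AMPK KO.

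The mitochondrial chaperonin and its lid both fell. Hspe1, the lid, was at 227, 203, 199 and 224 CPM in WT DMSO and at 166, 143, 150.5 and 141 CPM in WT torin1, and at 185, 192, 181 and 187 CPM in AMPK KO DMSO and 133, 139, 132 and 139.7 CPM in AMPK KO torin1. Its DMSO and torin1 libraries were apart in both genotypes, and the AMPK KO libraries were tightly grouped. It fell by 0.51 on the log2 scale in WT (SE 0.051, adjusted p = 5.8e-09 in edgeR) and by 0.45 in AMPK KO (SE 0.051, adjusted p = 4.8e-08 in edgeR).

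Hspd1, the barrel of the chaperonin, was at 979.5, 799, 835 and 921 CPM in WT DMSO and at 742, 595, 696 and 614 CPM in WT torin1. The AMPK KO libraries were at 1005, 1050.4, 957 and 984 CPM in DMSO and at 739, 823, 748 and 796 CPM in torin1. The lowest DMSO library of each genotype lay above the highest torin1 library. Hspd1 fell by 0.42 on the log2 scale in WT (SE 0.062, adjusted p = 2.3e-06 in edgeR) and by 0.36 in AMPK KO (SE 0.061, adjusted p = 1.9e-05 in edgeR). The genes overlap head to head on chromosome 1 (Hspd1 chr1:55077835-55088243, minus strand; Hspe1 chr1:55088132-55091307, plus strand; GRCm38). How strand was used in the counting was not given in the sources used here, and reads in the overlap may belong to either. The Hspe1 count was 24.2% ± 0.937 (SD, n = 4) of that of Hspd1 in WT DMSO and 22.7% ± 1.0 in WT torin1, with overlapping ranges. In AMPK KO it was 18.7% ± 0.374 in DMSO (18.3% to 19%) and 17.5% ± 0.483 in torin1 (16.9% to 18%), with ranges apart.

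Hspb1, the small heat shock protein gene (chr5:135887919-135889563, plus strand), was not called under torin1 in either genotype. It was at 62.5, 86.2, 74.7 and 71.5 CPM in WT DMSO and at 56.4, 107, 69.0 and 77.9 CPM in WT torin1, which overlapped, with passage 13 the highest in both groups. Its log2 fold change was 0.07 (95% interval -0.26 to 0.40, adjusted p = 0.71 in edgeR) in WT and -0.25 (95% interval -0.57 to 0.07, adjusted p = 0.17 in edgeR) in AMPK KO. In AMPK KO it was at 199.99, 239, 241 and 248 CPM in DMSO and at 168, 212, 203 and 197 CPM in torin1, lower at 4 of 4 passages. In a fit of the compared libraries alone the AMPK KO value was -0.29, with adjusted p = 0.008 in edgeR.

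**Figure D2:**
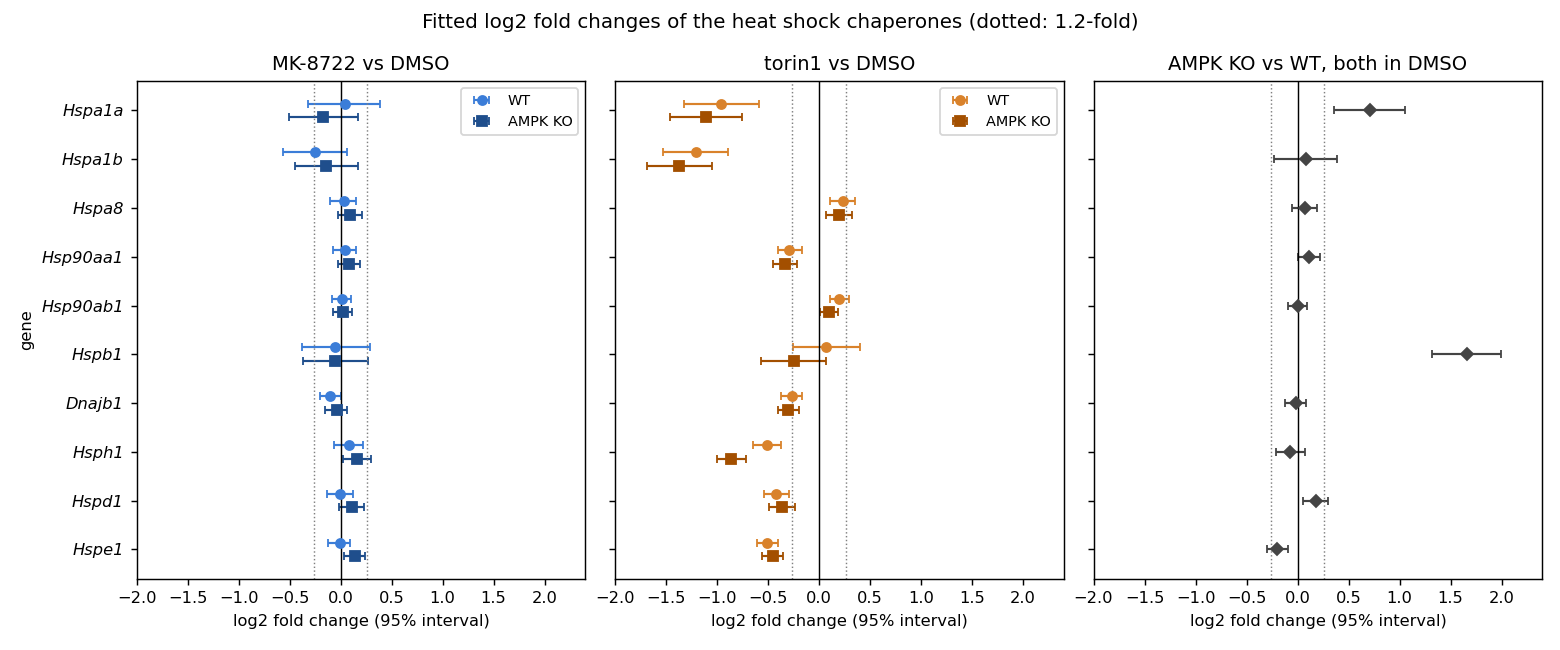
Fitted log2 fold changes of the 10 chaperones (points) with 95% intervals (bars) for MK-8722 against DMSO, torin1 against DMSO and AMPK KO against WT, both in DMSO; circles are WT, squares AMPK KO, and dotted lines mark a fold change of 1.2. Under torin1 the values run from -1.37 for Hspa1b in AMPK KO to 0.23 for Hspa8 in WT, those for MK-8722 run from -0.25 to 0.16, and Hspb1 stands at 1.66 for AMPK KO against WT.

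Under MK-8722 0 of the 10 chaperones were called in WT MEFs, where 15.6% of all genes were called in either direction, and 0 in AMPK KO MEFs, where 1.46% were. The values in WT ran from -0.25 (Hspa1b) to 0.08 (Hsph1) and those in AMPK KO from -0.17 (Hspa1a) to 0.16 (Hsph1). At an unadjusted p under 0.05 in edgeR there were 0 in WT and 2 in AMPK KO, Hsph1 and Hspe1 (adjusted p = 0.24 and 0.15), and DESeq2 called 0 in both genotypes. For Hspa1b the 4 MK-8722 libraries of WT were at 69.7, 91.3, 101.97 and 99.6 CPM, each below the DMSO library of its passage, and the 95% interval of the log2 fold change, -0.56 to 0.06, holds a fall of over 1.2-fold. The intervals of Hspa8 (-0.10 to 0.15), Hsp90aa1 (-0.07 to 0.15), Hsp90ab1 (-0.08 to 0.10), Dnajb1 (-0.20 to 0.00), Hsph1 (-0.06 to 0.22), Hspd1 (-0.13 to 0.12) and Hspe1 (-0.12 to 0.09) in WT lay within 1.2-fold on both sides. Hspa1a and Hspb1 are not among these, and their MK-8722 libraries in WT ran from 24.1 to 34.9 and from 53.8 to 82.9 CPM. In AMPK KO the intervals of Hspa8 (-0.03 to 0.21), Hsp90aa1 (-0.03 to 0.19) and Hsp90ab1 (-0.07 to 0.11) lay within 1.2-fold on both sides. The same held there for Dnajb1 (-0.15 to 0.06), Hspd1 (-0.02 to 0.23) and Hspe1 (0.03 to 0.24). The intervals of Hspa1a (-0.51 to 0.17), Hspa1b (-0.45 to 0.17), Hspb1 (-0.37 to 0.27) and Hsph1 (0.02 to 0.3) reached past 1.2-fold. For these last genes the absence of calls in AMPK KO does not bound the change to within 1.2-fold. The interaction of MK-8722 with genotype was called for 0 of the 10 by edgeR and by DESeq2, against 12.6% of all genes in edgeR, with values from -0.20 (Hspa1a) to 0.15 (Hspe1), of which Hspe1 alone had an unadjusted p under 0.05 (adjusted p = 0.16).

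The drugs were also set against each other in WT MEFs, with no library in common. Under torin1 6 of the 10 chaperones were lower than under MK-8722, against 21.1% of all genes called lower. Hspa1a differed by -0.99 and Hspa1b by -0.96 on the log2 scale (SE 0.18 and 0.15). Hsph1 differed by -0.59 (SE 0.068, adjusted p = 6.9e-08 in edgeR), Hspe1 by -0.49, Hspd1 by -0.41 and Hsp90aa1 by -0.32. Dnajb1 passed the adjusted p but not the fold (-0.17, SE 0.049, adjusted p = 0.004 in edgeR). Hspa8 was 0.20 higher under torin1 than under MK-8722, and 0.27, past the fold limit, without the MK-8722 library of passage 14. With library size alone Hsp90aa1 was under the limit (-0.23) and Hspa8 (0.30) and Hsp90ab1 (0.28) were past it, and with the GC content and length trend removed Dnajb1 was past it (-0.31).

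In DMSO the chaperone that set the lines apart was Hspb1, higher in AMPK KO MEFs in every library. Its 4 WT libraries lay between 62.5 and 86.2 CPM and its 4 AMPK KO libraries between 199.99 and 248 CPM. The log2 fold change was 1.66 (SE 0.16, 95% interval 1.32 to 1.99, adjusted p = 1.1e-08 in edgeR), or 3.15-fold. Over the alternative settings the value for Hspb1 ran from 1.21, which is below that interval, to 1.79. Its annotated copy Hsp25-ps1 moved alongside, from 51.4 counts on average in WT DMSO to 172 in AMPK KO DMSO, and read sharing between the 2 was not tested. Hspb1 and Hspa1a were the 2 of 10 chaperones called higher in AMPK KO, where 30.8% of all genes were called higher and 25.9% lower, and no chaperone was called lower.

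Hspa1a was at 28.7 CPM ± 3.41 (SD, n = 4) in WT DMSO and at 46.7 ± 6.93 in AMPK KO DMSO without overlap, a log2 fold change of 0.71 (SE 0.17, adjusted p = 0.00076 in edgeR). Its twin Hspa1b was at 108 ± 6.42 and 114 ± 11.5 CPM, with a log2 fold change of 0.08 (adjusted p = 0.63 in edgeR). Summed, the pair differed by 0.24 (adjusted p = 0.16 in edgeR), and Hspa1a took 21% ± 1.86 of the pair's counts in WT DMSO and 29% ± 1.30 in AMPK KO DMSO. With the trend in GC content and transcript length removed, a setting chosen after seeing the data, Hspa1a stood at 0.24 (adjusted p = 0.14 in edgeR) and Hspa1b at -0.37 (adjusted p = 0.019 in edgeR), so that Hspa1a lost its call and Hspa1b turned its direction. Hspd1 (0.18, adjusted p = 0.013 in edgeR) and Hspe1 (-0.20, adjusted p = 0.0015 in edgeR) passed the adjusted p in opposite directions but not the fold. Hspe1 passed both without the WT DMSO library of passage 14 (-0.27), and with the GC content and length trend removed Hspe1 and Dnajb1 did (-0.28 each). Hspd1 passed both with library size alone (0.32), which put the median of all genes at 0.15 in place of 0.02. The Hspe1 count was 18.7% ± 0.374 (SD, n = 4) of that of Hspd1 in AMPK KO DMSO, against 24.2% ± 0.937 in WT DMSO, and those ranges were apart. The other 6 chaperones had values from -0.07 (Hsph1) to 0.11 (Hsp90aa1).

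**Figure D3:**
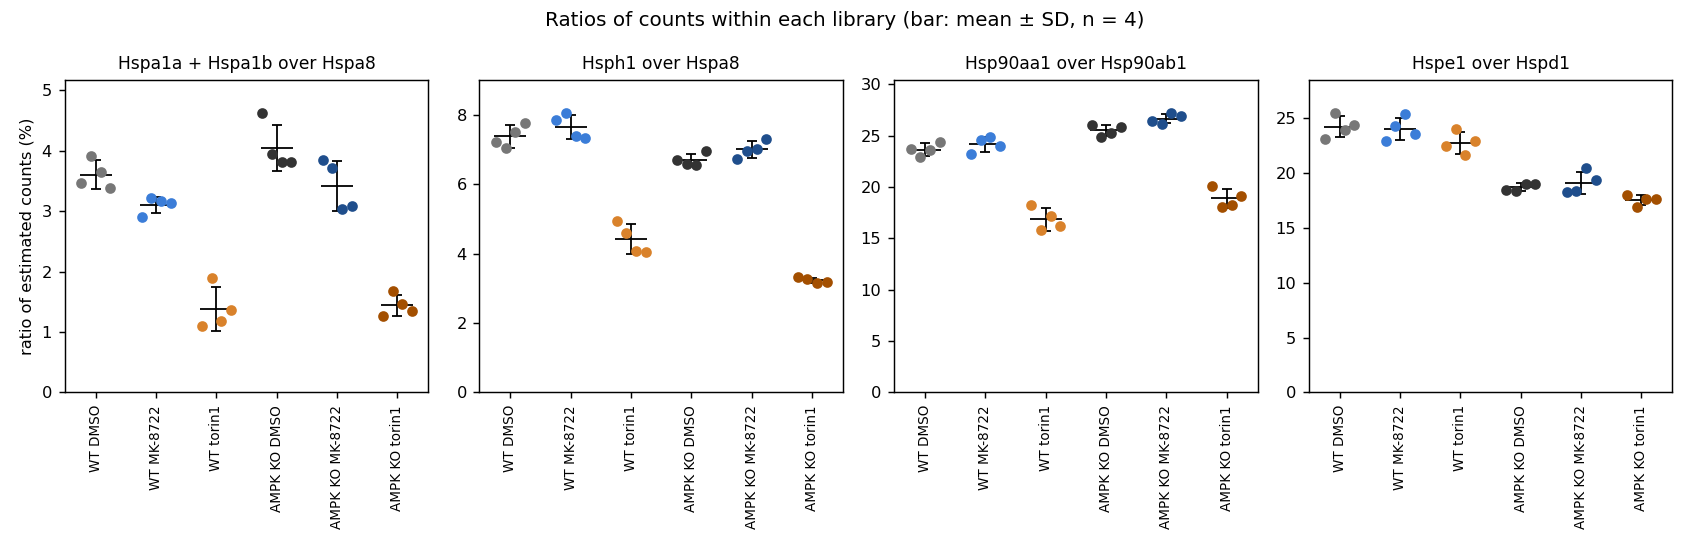
Ratios of estimated counts within each library, in percent on a linear axis from 0, for Hspa1a plus Hspa1b over Hspa8, Hsph1 over Hspa8, Hsp90aa1 over Hsp90ab1 and Hspe1 over Hspd1. Points are the 4 libraries of each group in passage order and bars the mean ± SD; the first 3 ratios are lower under torin1 in both genotypes, and the last is lower in AMPK KO than in WT.

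Correlations of log2 CPM over the 24 libraries are given as a description, since the libraries share lines, treatments and scaling. Hsp90aa1 and Hspd1 had r = 0.96, Hspa1b and Dnajb1 r = 0.94, and Hsph1 and Hspe1 r = 0.94. After the mean of each genotype was taken off, Hspd1 and Hspe1 had r = 0.97 (0.71 before) and Hspa1a and Hspa1b r = 0.96 (0.86 before). Hspa8 and Hsp90ab1 went together (r = 0.67). With the inducible Hspa1a, Hspa1b and Hsp90aa1, Hsp90ab1 had r = -0.72, -0.68 and -0.53. Hspa8 had weaker values with the same genes, -0.32, -0.51 and -0.38, and r = 0.35 with Hspb1. Likeness was ranked among genes averaging at least 5 CPM, with gene models (Gm or Rik names) and -ps pseudogenes passed over. Copies such as Gm15459 of Hspa8 were thus not ranked. Those most like Hspa1b were Dynll1 (r = 0.970), Pgp (0.967) and Wdr45b (0.960), with Dnajb1 for its part closest to Hspa1b (0.937). Among those most like Hsph1 were Txn1 (0.965) and Preb (0.948), and those most like Hspe1 were Hprt (0.985), Bccip (0.978) and Usp39 (0.975). Hspb1 was closest to Il17rc (0.991), Zbtb7c (0.987) and Megf6 (0.986), and Hspa8 had no ranked gene above r = 0.854 (Zmynd8). Hsp90aa1 was closest to Hspd1 (0.957), Eloc and Rpl36al, Hspd1 to Naa50 (0.967), Abcf2 and Exosc3, Hspa1a to Ndufs8 (0.949), Atp5j and Ost4, and Hsp90ab1 to Rpl22 (0.869), Rpl37a and Mri1.

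Within members with several transcripts the share of the leading transcript was also compared. Hsp90aa1, Hsp90ab1, Hspa8, Hspd1 and Hsph1 each had at least 2 transcripts with 10% or more of the gene's TPM. Of the 25 comparisons (5 genes, both drugs against DMSO in each genotype and AMPK KO against WT) 0 passed, with adjusted p of 0.71 or more in the two-sided exact permutation test of 4 against 4 libraries. The smallest p of that test is 0.029, so that a change in 1 comparison, or in only a few, could not pass. The absence of calls thus does not bound the change in share. The 1 comparison at that smallest p was the leading Hsp90aa1 transcript under torin1 in AMPK KO, whose share was 1.38 percentage points below the 28.3% ± 0.780 (SD, n = 4) of DMSO. The leading Hsph1 transcript held 35.5% ± 1.57 of the gene in WT DMSO and 33.4% ± 0.977 in WT torin1.

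Partners of these chaperones were taken from lists of the same pathway. Heat shock factors themselves were not called under torin1: Hsf1 was at 96.9 CPM ± 1.33 (SD, n = 4) in WT DMSO and 81.8 ± 1.79 in WT torin1, a log2 fold change of -0.24 (SE 0.036, adjusted p = 2.1e-06 in edgeR) that is under the fold limit, and Hsf2 had -0.16. In AMPK KO torin1 Hsf1 again had -0.24 and Hsf2 -0.14. Of 7 listed factors and regulators 4 could be tested, and 0 were called under torin1 by edgeR in either genotype. Hsf1, Hsf2 and Hsbp1, a negative regulator of HSF1, passed the adjusted p in both without reaching the fold, 3 of 4 had an unadjusted p under 0.05 in each, and DESeq2 called 0 in WT and 1 in AMPK KO. Against WT, in DMSO, Hsf1 was higher in AMPK KO (0.51, SE 0.035, adjusted p = 3.1e-12 in edgeR) and Hsf2 was lower (-0.48, SE 0.057, adjusted p = 4.2e-08 in edgeR).

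Co-chaperones of HSP90 fell under torin1 in 12 of 16 in WT and 11 of 16 in AMPK KO, with list medians of -0.45 and -0.39, where 21.1% and 17.5% of all genes were called lower. Among genes with a mean of at least 5 CPM Chordc1 had the largest fall in WT (-0.93, SE 0.055) and Fkbp4, an immunophilin, the largest in AMPK KO (-0.71, SE 0.043), while Sugt1 rose in WT (0.31, SE 0.043). Relatives and exchange factors of HSP70 fell in 7 of 16 in WT and 8 of 16 in AMPK KO, among them Hspa4 (-0.87 and -0.70), an HSP110 relative of Hsph1; Bag3, Bag2 and Bag1, which bind HSP70 and exchange its nucleotide, were also among those that fell in both. Hspa12a and, in WT, Hspa12b rose. J proteins fell in 7 of 16 tested in WT and 5 of 16 in AMPK KO, with Dnajb5 at -1.23 and -0.99, and 2 rose in AMPK KO, Dnajb2 (0.46) and Dnajc13.

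Among small heat shock proteins Cryab, Hspb6 and Hspb8 fell in both genotypes, 3 of 5 tested, with Hspb8 at -1.25 (SE 0.15) in WT and Cryab at -0.95 (SE 0.15) in AMPK KO. Hspb11, a subunit of the intraflagellar transport machinery that carries the family's name, rose (1.03 and 0.77). Of 11 mitochondrial chaperones and proteases 3 fell in each genotype, close to the 21.1% and 17.5% of all genes, among them Hspa9, the mitochondrial HSP70 (-0.54 in WT), and Grpel1, its exchange factor (-0.63 in AMPK KO), and Hscb, which serves iron-sulfur cluster assembly, rose in both (1.23 and 0.84). Subunits of the cytosolic chaperonin TRiC and of prefoldin fell in 7 of 14 in WT and 5 of 14 in AMPK KO, with Pfdn6 at -0.62 and -0.58 and with Cct4 higher in both (0.47 and 0.46). Chaperones of the endoplasmic reticulum, which answer to another stress pathway, fell in 13 of 16 in each genotype, with medians of -1.17 and -0.58 and with Hspa5, the HSP70 of that compartment, at -1.98 and -1.34.

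**Figure D4:**
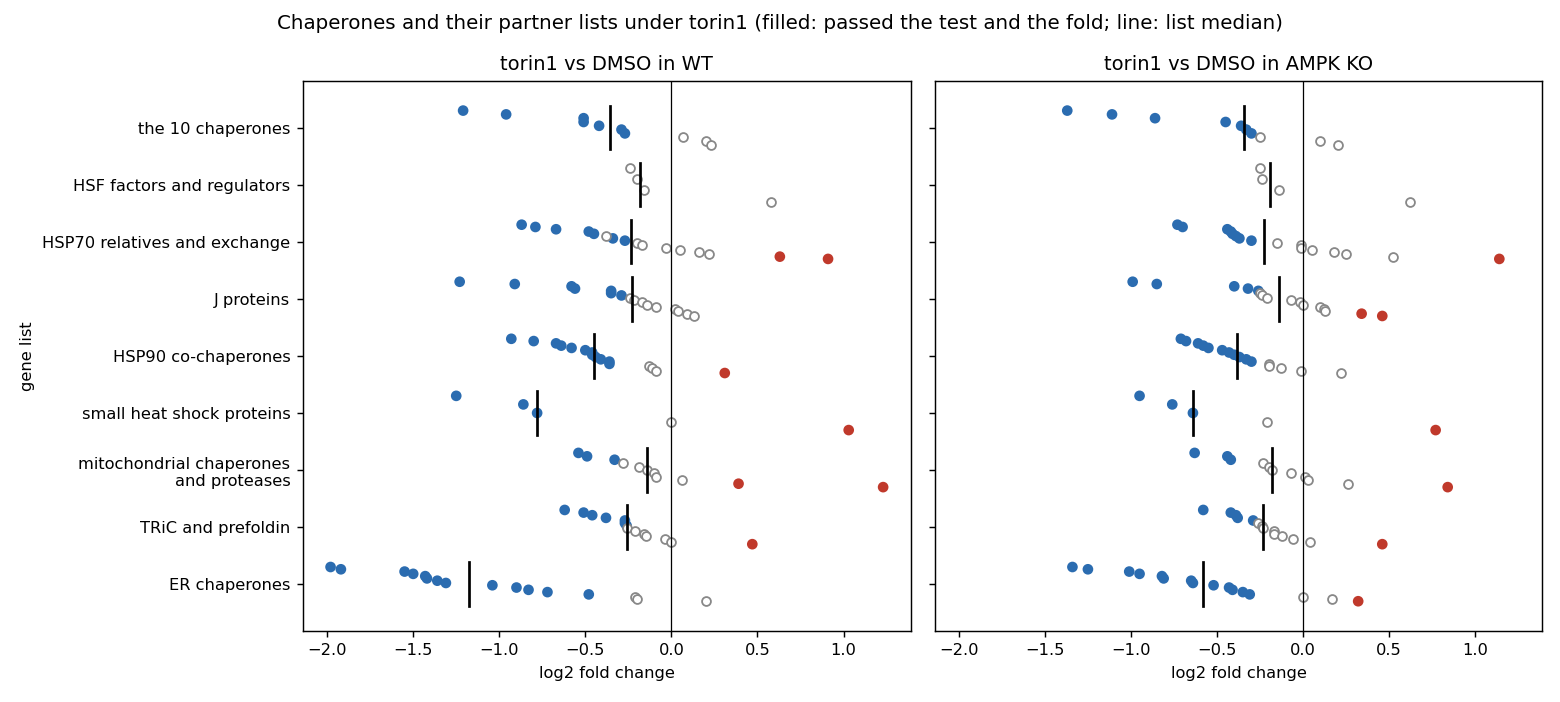
Log2 fold changes under torin1 in WT (left) and AMPK KO (right) of the 10 chaperones and of 8 lists of partners; each point is a gene tested, filled where it passed the adjusted p and the fold change of 1.2 (blue lower, red higher), and vertical lines are list medians. The medians of all lists are below 0 in both genotypes, from -0.14 to -1.17 in WT and from -0.14 to -0.64 in AMPK KO.

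Under MK-8722 the calls among partners were in WT. There 15.6% of all genes were called in either direction, and 64% of those calls were higher. Of 5 small heat shock proteins 3 were higher, Hspb11 (0.64, SE 0.10), Cryab and Hspb2. The last was very low, at 0.234 CPM on average in WT DMSO and 0.531 CPM in WT MK-8722. Of 16 J proteins 4 were higher, among them Dnajb4 (0.56, SE 0.11). Of 16 HSP70 relatives 3 were higher, among them Hspa4l (0.38, SE 0.11). For Cryab, Dnajb4 and Hspa4l the DMSO and MK-8722 libraries overlapped. Hscb (0.44) and Sil1 (0.43), a nucleotide exchange factor of the endoplasmic reticulum, were higher, and Fkbp5 (-0.27, SE 0.040) and Dnajc9 (-0.31, SE 0.043) were lower. In AMPK KO 0 genes of the 8 lists were called under MK-8722 by edgeR and 0 by DESeq2, and 9 of their 98 tested genes had an unadjusted p under 0.05. In the genotype comparison in DMSO 5 of 16 HSP90 co-chaperones were higher and 5 lower, close to the 30.8% and 25.9% of all genes, with Sugt1 at -0.64, Hspb6 was higher (0.91), Dnajb2 was higher (1.28) and Dnajb4 lower (-0.92). Of the HSP70 relatives 2 were higher and 3 lower, with Hspa2 at 0.35 and Hspa12b at -5.05, and of the mitochondrial list 3 were higher and 3 lower, with Trap1, the mitochondrial HSP90, at 0.65 and Clpx at -0.53. Of TRiC and prefoldin 1 was higher (Pfdn5, 0.50) and 4 lower, with Cct2 at -0.46. Chaperones of the endoplasmic reticulum were lower in 14 of 16 (median -0.81, Pdia6 at -1.34), and their torin1 interaction was called higher in 13 of 16, against 4.19% of all genes, with a median of 0.54, where that of the 10 chaperones was -0.07.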

How the data were processed

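Libraries from poly(A) RNA (52-base paired reads) were processed by the authors with STAR and Salmon in nf-core/rnaseq on GRCm38, with molecular identifiers taken into account. For each library, the authors deposited estimated counts per gene, which Salmon need not give as whole numbers, and TPM per transcript, which were summed here per gene for levels between genes and used for transcript shares. Estimated counts were rounded and fitted with edgeR 4.0.16 in R 4.3.3 (TMM scaling, filterByExpr, robust quasi-likelihood fit of 6 group means over 24 libraries). P-values were adjusted over the 15828 genes kept, which hold 99.96% of counts. The call rule was an adjusted p under 0.05 together with a change of 1.2-fold or more. DESeq2 1.42.0, other scalings, filters, thresholds, replicate blocks and leaving out each library served as alternatives. The fit was tested on simulated data. The 10 genes, the partner lists and the tests were chosen with earlier results of these data known, and no list is independent support. Named partners were the called gene of each list with the largest rise and fall per comparison, with a mean of at least 5 CPM (some results that this rule names are not reported here); Bag1, Bag2, Bag3, Hspa12a, Hspb2, Dnajc13, Dnajc21, Clpp, St13, Vbp1 and Hsbp1 were also named, chosen after their values were seen. Promoter sequences are from RefSeq (GRCm38.p6) and gene positions from a GENCODE annotation of GRCm38. Likeness was Pearson's r over log2 CPM with a prior count of 2, and gene models (Gm, Rik) and -ps pseudogenes were not ranked. The authors' own batch correction was not used here. Pseudogene copies share reads, and Salmon's split of them carries an error that these fits do not include.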

Additional observations from a re-analysis of the deposited data

Results flagged for a closer look

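In the WT MK-8722 libraries Hspe1 stood at 226 CPM at passage 14, while the other 3 libraries lay between 205 and 207 CPM. It was the 1 of 60 sets of 4 libraries, 10 genes in 6 groups, in which an end value was far from the rest, where chance gives about 1 in 20.

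The torin1 response of Hsph1 differed between the genotypes by -0.35 on the log2 scale, AMPK KO against WT, in the test of the difference itself. Among the partners that the naming rule picked, a difference of the torin1 response between genotypes was called for Dnajb2 (0.55), Chordc1 (0.32), Hspa5 (0.64), Pdia6 (0.52) and Dnajb9 (0.53). Other list members called there were Dnajc21, Clpp and the rest of the 13 endoplasmic reticulum chaperones. For MK-8722 the rule's genes with a called difference were Hspa4l (-0.57), Dnajb4 (-0.67), Fkbp5 (0.33), Cryab (-0.69), Hspb11 (-0.53), Hscb (-0.53), Pfdn6 (0.27) and Sil1 (-0.44), and the other list members called were Dnajc13 (-0.54), St13 (-0.33), Hspa12a, Hspb2 and Vbp1.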

How the results depend on the processing

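Of 1990 values of single chaperones under the alternatives, 1933 kept their side of the threshold, though uncalled values near 0 changed sign (Hspb1 under torin1 in WT from -0.13 to 0.19), 35 were no longer called, 21 became called and 1 reversed. That 1 was Hspa1b in AMPK KO against WT, at -0.37 with the trend in GC content and transcript length removed, which was chosen after seeing the data. The count of chaperones called under torin1 in WT was 2 with a limit of 1.5-fold, and 3 in AMPK KO; with a test against a fold change of 1.2 it was 4 in AMPK KO. For torin1 against MK-8722 it was 3 at 1.5-fold. For AMPK KO against WT it was 4 with the adjusted p alone, 1 with Hspa1a and Hspa1b summed and 4 with the GC content and length trend removed. For the torin1 interaction it was 0 with the transcript length offset, 0 at 1.5-fold, 0 with the test against 1.2-fold and 2 with the passage as a replicate block, which added Hspb1. The cause was not tested beyond what each setting itself changes. Leaving out 1 library gave 0 to 0 called for MK-8722 in WT, 5 to 7 for torin1 in WT, 0 to 0 for MK-8722 in AMPK KO, 7 to 7 for torin1 in AMPK KO, 2 to 3 between the genotypes, 6 to 7 for torin1 against MK-8722, 0 to 0 for the MK-8722 interaction and 0 to 1 for the torin1 interaction. Same-numbered replicates did not deviate together (5 of 60 pairs with r over 0.1), and with the replicate number as a block the count of called chaperones was the same in every comparison. Library pairs of the same passage had r from -0.01 to 0.37, 15 of 24 over 0.1, against 0 of 72 pairs of other passages in the same genotype. Libraries of the same passage thus tended to deviate together, though not every pair was over 0.1. The main model leaves this pairing out. With the passage as a block the genes called under MK-8722 in AMPK KO rose from 231 to 713, and those of the torin1 interaction from 1127 to 1865. The count of chaperones called under MK-8722 in AMPK KO stayed at 0 with that block. The counts of the partner lists above are without it. The share of called genes that were higher moved by more than 10 percentage points with the scaling: under torin1 in WT it was 55.7% with TMM, 67.5% with library size alone and 44.5% with the GC content and length trend removed, under torin1 in AMPK KO 59.5% with TMM and 45.9% with that trend removed, between the genotypes 54.3%, 67.4% and 39.9%, between the drugs in WT 53.6% and 65.4% with library size alone, and for the torin1 interaction 58.8% and 42.5% with library size alone. Of counts per list, 177 of 1824 moved by over 1.5 times.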
